A study of Mus musculus with 2 samples.

Results

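The adventitial fibroblast is the matrix-producing cell of the outer coat of large vessels and airways in the lung. It is known for the small proteoglycans decorin and lumican, for the surface or secreted proteins encoded by Pi16 and Clec3b, and for microfibril proteins such as those encoded by Mfap5 and Fbln1. The lipid-rich fibroblasts of the alveolar wall, which carry Tcf21 and Inmt, are a separate class. The surface of the lung is covered by mesothelium, a sheet of keratin-bearing cells marked by Msln, Upk3b and Wt1 that also secretes matrix.

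Cells called adventitial matrix fibroblasts here were chosen by their own counts, from single-cell RNA sequencing (10x Genomics droplets) of whole dissociated lungs. A cell entered when Clec3b, Pi16, Dcn, Mfap5 and Lum together gave at least 20 of every 10000 unique molecular identifiers (UMIs, counted molecules) and more than Inmt, Tcf21, Mfap4 and Hsd11b1 together. It also had to hold under 3 UMIs per 10000 of Cldn5 plus Cdh5 (endothelium), under 3 of Myh11 (smooth muscle), and under 6 of Cdkn2a, Twist1 and Hmga2 together (carcinoma). These limits selected 268 cells out of 5506 that had 1000 to 7000 detected genes and at most 10% mitochondrial UMIs, and out of 5789 deposited cells. The levels of the rule's genes are therefore a description of the choice and not a result.

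Both libraries came from female FVB/NJ mice that had received Met-1 cells, a mammary carcinoma line derived from the MMTV-PyMT mouse, by tail vein at 10 weeks of age. The library called low burden was made from 1 mouse in week 1, and the one called high burden from 1 other mouse in week 3. The carcinoma cells seed the lung directly in this model, so that no primary tumor was present, and neither library is from an uninjected lung. The labels place both libraries in 1 batch, but week, mouse, metastatic burden and library cannot be told apart. With 1 library per group no difference between them has a replicate check, no test was made and no p-value is given. All intervals are exact 95% intervals that cover counting error only.

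The libraries differed in depth, with 14041471 (low burden) and 52723173 (high burden) UMIs in all and medians of 4073 and 13998 UMIs per kept cell. Selected cells had medians of 4730.5 (low burden) and 12183 UMIs (high burden). The libraries shared 11 cell barcodes, 2 selected cells carried a shared barcode, and no barcode was selected in both. In lymphocytes, which should lack fibroblast genes, Dcn stood at 51 counts scaled to a total of 1000000 (CPM) in the low-burden and 8 CPM in the high-burden library, against 13676 and 5782 CPM in the selected cells.

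The low-burden library held 204 selected cells, 8.25% of its kept cells (interval 7.19 to 9.40%). The high-burden library held 64, or 2.11% of its kept cells (1.63 to 2.69%). Because 1261 high-burden cells exceeded the carcinoma limit against 20 low-burden cells, the share was also taken over cells under that limit, where it was 8.32% and 3.61%. The lower share did not hold under 1 limit. Without members that had 20 or more UMIs per 10000 of immune or of epithelial markers, the low-burden library kept 11 members (0.445%) and the other library 20 (0.659%), so that the order of the shares turned. Lymphocytes had medians of 38.0 (low burden) and 23.6 (high burden) of the 8 epithelial markers on the same scale. The members just inside the limit of 20 UMIs per 10000 had 21.3, 24.1 and 24.2 in the low-burden library and 20.2, 20.2 and 21.1 in the high-burden library. Those just outside had 18.9, 18.7 and 12.0 in the low-burden library and 18.4, 17.9 and 16.6 in the high-burden library. Fewer members lay close to the limit in the low-burden library, where 7 of 204 were between 20 and 40, than in the high-burden library, where 17 of 64 were.

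The name adventitial fibroblast described most low-burden members and a minority of high-burden members. Cells were therefore divided further by genes, a division chosen after the values had been seen. Cells with at least 3 UMIs per 10000 of Msln, Upk3b, Wt1, Lrrn4 and Gpm6a together are called Msln/Upk3b-positive. Of the others, cells with at least 20 UMIs per 10000 of Clec3b, Pi16, Mfap5 and Lum together are called Clec3b/Pi16-rich, and the remaining cells, which passed the rule mainly through decorin, are called Dcn-led. In the low-burden library 175 of 204 cells were Clec3b/Pi16-rich (85.8%), 10 were Dcn-led (4.90%) and 19 were Msln/Upk3b-positive (9.31%). In the high-burden library 13 of 64 cells were Clec3b/Pi16-rich (20.3%), 15 were Dcn-led (23.4%) and 36 were Msln/Upk3b-positive (56.3%). Clec3b/Pi16-rich cells had medians of 4717 (low burden) and 5666 UMIs (high burden). The medians were 3973 and 12450 in Dcn-led cells, and 6595 and 16321 in Msln/Upk3b-positive cells.

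**Figure D1:**
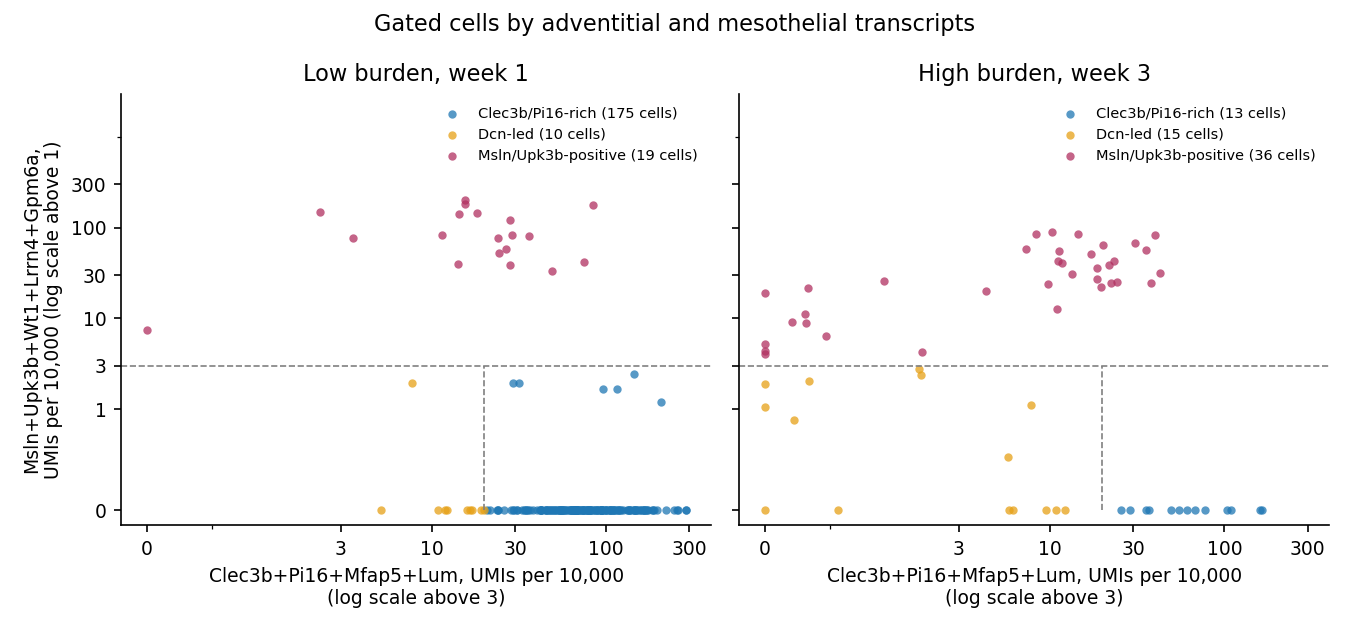
Each point is a selected cell, by the summed UMIs per 10000 of Clec3b, Pi16, Mfap5 and Lum (horizontal) and of Msln, Upk3b, Wt1, Lrrn4 and Gpm6a (vertical), both linear near 0 and logarithmic above, with the low-burden library on the left and the high-burden library on the right. Dashed lines mark the limits of 20 and 3; the 175 Clec3b/Pi16-rich low-burden cells lie along the bottom right, while 36 of 64 high-burden cells lie above the horizontal line.

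As shares of all kept cells, Clec3b/Pi16-rich cells made up 7.08% (6.10 to 8.16%) of the low-burden and 0.429% (0.228 to 0.732%) of the high-burden library. Msln/Upk3b-positive members made up 0.768% (0.463 to 1.20%) and 1.19% (0.833 to 1.64%), and Dcn-led members 0.404% and 0.495%. The lower number of members in the high-burden library was thus in Clec3b/Pi16-rich cells, whereas the other sets were not smaller shares. Over all kept cells, selected or not, 79 of 2473 low-burden and 49 of 3033 high-burden cells reached the limit of 3 for Msln, Upk3b, Wt1, Lrrn4 and Gpm6a. The larger share of Msln/Upk3b-positive cells thus holds for selected cells only. The separation along the Msln axis was wide in most cells. Only 7 low-burden and 8 high-burden members had a summed level above 0 and under the limit of 3, while 18 and 29 had 10 or more. Of the lymphocytes, 2 of 115 low-burden and 1 of 50 high-burden cells reached that limit of 3, and none reached the limit for Clec3b, Pi16, Mfap5 and Lum.

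The genes of the rule, given here as a description since they also defined the sets, were read at equal depth, with every cell thinned to 2000 UMIs. There Pi16 was detected in 137 of 175 Clec3b/Pi16-rich low-burden cells (78.3%) and in 10 of 13 high-burden cells (76.9%). It was detected in none of 19 and none of 36 Msln/Upk3b-positive cells, and in 2.61% and 2.00% of lymphocytes. All 5 genes of the rule's first sum were found in 80 and another 69 cells had 4 of them among the 175 low-burden Clec3b/Pi16-rich cells. Among the 13 high-burden ones 5 cells had all 5 genes and 5 cells had 4. Of the 36 high-burden Msln/Upk3b-positive cells, 13 showed only 1 of the 5 genes and 18 showed 2.

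Genes that played no part in choosing the cells gave the sets different characters. In the low-burden library the genes most above other kept cells in the Clec3b/Pi16-rich set were, apart from genes of the rule, Penk, the enkephalin precursor, Lsamp, Scara5, a ferritin receptor, Entpd2, an enzyme that cleaves extracellular ATP, Sfrp4, a secreted Wnt antagonist, and Ccl11, the eosinophil chemokine. In the high-burden library Ccl11, Fbln1, Meg3, Col3a1 and Fbn1 were among the leading 10. The Msln/Upk3b-positive set was led by the genes that defined it and by Lgals2, Slurp1 and Cldn15 in the low-burden library, and by Upk1b, Fgf9, Cldn15, Gjb5, Smpd3 and Rspo1 in the high-burden library. The high-burden Dcn-led set was led by Dcn, Ptger3, Igf1, Aldh1a2, Mdk, Col3a1, Spon2 and Vcan.

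Gsn, the actin-severing protein gelsolin and a strong fibroblast transcript in the lung, separated the sets plainly. Its median over cells was 429 UMIs per 10000 in low-burden and 307 in high-burden Clec3b/Pi16-rich cells, and 7.09 and 2.17 in the Msln/Upk3b-positive cells. The 10 low-burden Dcn-led cells had a median of 203 and the 15 high-burden Dcn-led cells a median of 2.62. The 10 general fibroblast markers, a list of collagens, Pdgfra, Gsn and others, summed to 59237 CPM in low-burden and 38085 CPM in high-burden Clec3b/Pi16-rich cells. Gsn alone stood at 38691 and 44896 CPM in the low-burden cells without and with detected Pi16, and at 25297 and 19660 CPM in the high-burden ones. It thus made up most of these sums, and the list is not separate from Gsn. The same list summed to 9272 and 8482 CPM in Msln/Upk3b-positive cells and to 902 and 348 CPM in lymphocytes. Dermatopontin (Dpt), a matrix protein that binds decorin, stood at 1490 and 1248 CPM in Clec3b/Pi16-rich cells and at 13 and 14 CPM in Msln/Upk3b-positive cells.

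Markers of other cell types, apart from the epithelial list, were low in Clec3b/Pi16-rich cells. The 8 mesothelial markers gave 35 UMIs in the 175 low-burden cells, with Upk3b and Wt1 at 0, and all 8 were at 0 in the 13 high-burden cells. In Msln/Upk3b-positive cells the same list, which includes genes that defined the set, gave 9718 and 5142 CPM with none at 0. Its keratin Krt18, which was not used to define it, stood at 346 and 528 CPM there and at 6 and 0 CPM in Clec3b/Pi16-rich cells. The 16 immune markers summed to 755 CPM in low-burden and 1485 CPM in high-burden Clec3b/Pi16-rich cells, against 6977 and 8162 CPM in lymphocytes. The 8 epithelial markers summed to 5074 and 2032 CPM there, and 1 low-burden cell held 3346 of their UMIs per 10000 against a median of 31.7. The 10 endothelial markers summed to 278 and 144 CPM, and all 5 Schwann cell markers were at 0 in both libraries. Of the 10 carcinoma markers the high-burden Clec3b/Pi16-rich cells had 485 CPM, near the 571 CPM of lymphocytes in that library.

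**Figure D2:**
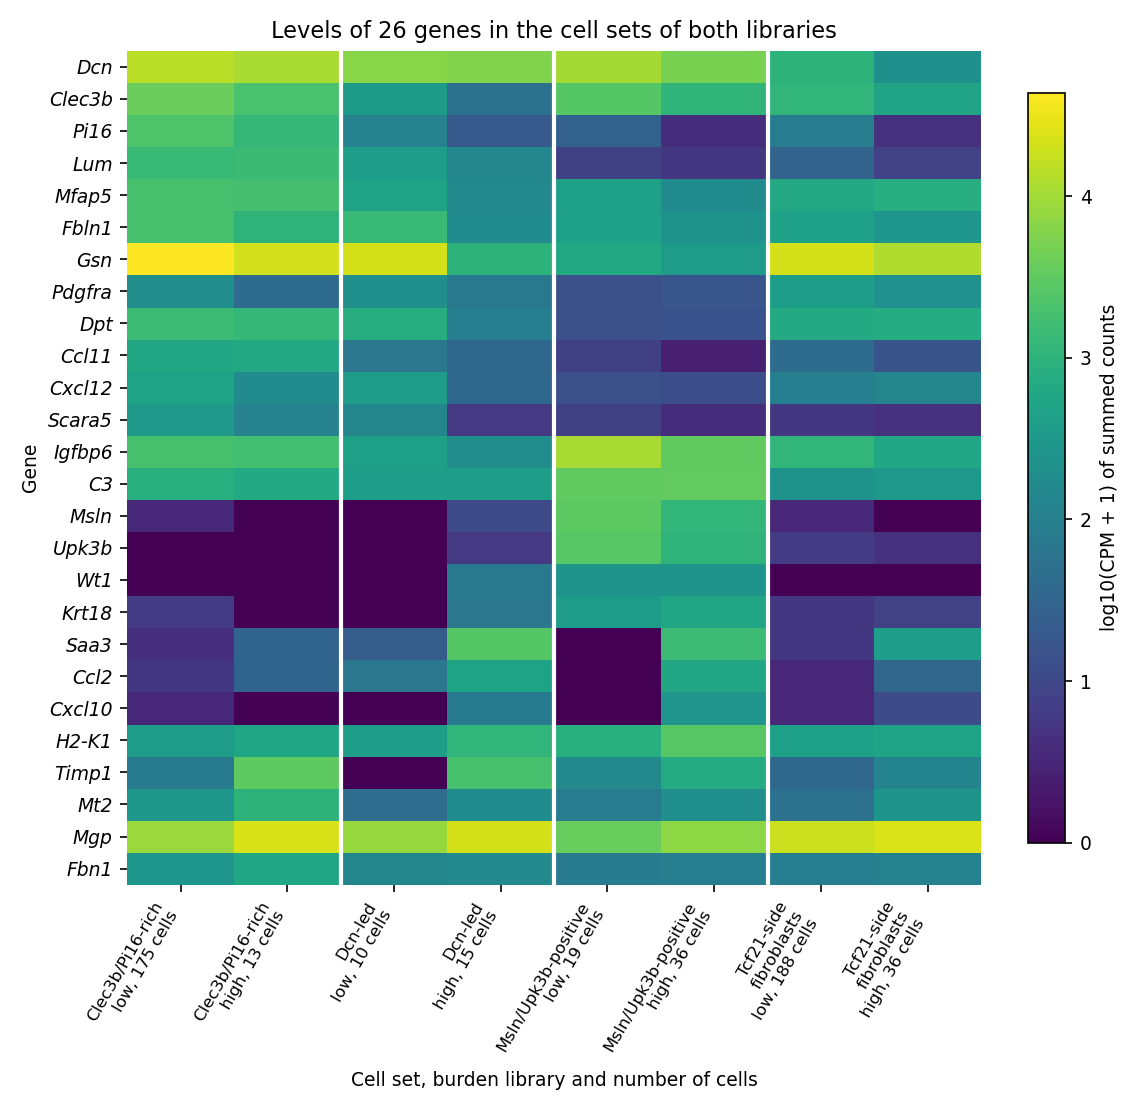
Level of 26 genes (rows) in 8 cell sets (columns, with the library and number of cells), as log10 of summed CPM plus 1. Gsn and Dpt are bright in Clec3b/Pi16-rich and Tcf21-side fibroblasts and dim in Msln/Upk3b-positive cells, while Saa3, Ccl2 and Cxcl10 are bright in the high-burden Dcn-led or Msln/Upk3b-positive columns.

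A comparison of all 204 with all 64 cells mixes these sets. Counts were summed over the cells of each library and scaled to CPM, and genes with at least 50 UMIs over both libraries and present in 10% or more of the members of either library were compared. Of 4949 such genes, 436 (8.81%) were more than 2-fold higher and 621 (12.5%) more than 2-fold lower in the high-burden library, beside a median log2 ratio of -0.000534 over all genes. Msln/Upk3b-positive cells were set aside in a second comparison. Of 3279 genes then compared, 200 (6.1%) were past 2-fold higher and 543 (16.6%) past 2-fold lower. Among Clec3b/Pi16-rich cells alone, 103 of 2734 genes were past 2-fold higher (3.77%) and 390 past 2-fold lower (14.3%), and the interval excluded equality for 93 (3.4%) and 196 (7.17%) of these.

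The 10 highest ratios over all members were those of Saa3, an acute-phase apolipoprotein (log2 ratio 8.75, interval 7.39 to 10.63), the monocyte chemokines Ccl7 (7.11) and Ccl2 (6.34), the interferon-induced chemokine Cxcl10 (6.73), Lcn2, which binds bacterial iron carriers (5.41), and the cell division genes Ube2c (6.92), Birc5 (6.14), Ccnb2 (5.92), Cdk1 (5.41) and 2810417H13Rik (5.16). Of each of these 10 genes the high-burden Clec3b/Pi16-rich cells held 0 to 13 UMIs, the most being 13 of the 152 UMIs of Lcn2, which lymphocytes held at 2 CPM in the low-burden and 153 CPM in the high-burden library. Low-burden members held at most 7 UMIs of each of the 10 genes. All 10 thus passed the filter only through the high-burden cells, which fixed their direction. Saa3 (chr7:46711998-46715700, minus strand, mm10) had 4 UMIs in all low-burden members and 1540 in all high-burden members. Of the 1540, 1005 were in Msln/Upk3b-positive cells, 532 in Dcn-led cells and 3 in Clec3b/Pi16-rich cells. Ccl2 had 7 and 506 UMIs, of which 404 of the high-burden UMIs were in Msln/Upk3b-positive cells, 99 in Dcn-led and 3 in Clec3b/Pi16-rich cells. Ccl7, its neighbor on chromosome 11, had 2 and 246 UMIs, and Cxcl10 had 2 and 189, of which 172 were in Msln/Upk3b-positive cells.

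These UMIs were unevenly spread over the cells. Among the 36 high-burden Msln/Upk3b-positive cells, 27 had a UMI of Saa3, with a median of 1.30 and a maximum of 135 UMIs per 10000. Of the 15 high-burden Dcn-led cells, 13 had one, with a maximum of 205. Ccl2 was found in 20 of the 36 Msln/Upk3b-positive cells with a maximum of 64.2. The highest cells thus lay far above the median, and in lymphocytes of the same library Saa3 reached 81 CPM. The numbers of cells with a UMI of Saa3 or Ccl2 were not read at equal depth. Beside these chemokines, Cxcl1, a neutrophil attractant, stood at 215 and 196 CPM in Clec3b/Pi16-rich cells, and at 0 UMIs in low-burden against 372 UMIs in high-burden Msln/Upk3b-positive cells.

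The promoters of genes that mark these differences are shown to place 1 of the genes high in the high-burden members (Saa3), 1 induced by interferon (Cxcl10), 1 protease inhibitor that was higher in the Clec3b/Pi16-rich cells (Timp1) and 1 of the rule (Pi16) side by side. Each is 300 bases, from 250 before to 50 after the RefSeq start on GRCm38.p6, read 5′ to 3′ on the gene's strand. Capitals mark matches on either strand to 3 of the 4 motifs searched, TGANTCA (AP-1), TTNNGNAA (C/EBP) and the NF-kB motif (GGGA and TTCC with any 2 bases between them, called kB); the fourth, TATAAA, gave no match in these windows. Ccl2 and Ccl7 are named only.
Saa3 (chr7:46715627-46715926, minus strand): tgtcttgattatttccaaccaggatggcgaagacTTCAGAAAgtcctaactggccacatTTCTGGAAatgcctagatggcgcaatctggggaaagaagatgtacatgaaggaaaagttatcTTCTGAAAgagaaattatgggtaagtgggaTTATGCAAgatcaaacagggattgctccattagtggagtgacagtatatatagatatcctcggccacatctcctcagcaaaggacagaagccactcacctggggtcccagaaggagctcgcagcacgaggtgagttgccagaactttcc
Cxcl10 (chr5:92348840-92349139, minus strand): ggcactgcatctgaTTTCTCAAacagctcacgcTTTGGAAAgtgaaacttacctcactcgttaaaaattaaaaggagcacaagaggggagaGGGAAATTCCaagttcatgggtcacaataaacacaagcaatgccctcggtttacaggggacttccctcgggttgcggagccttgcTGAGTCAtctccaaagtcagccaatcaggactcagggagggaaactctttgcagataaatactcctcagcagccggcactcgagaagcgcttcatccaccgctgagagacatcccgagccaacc
Timp1 (chrX:20869916-20870215, plus strand): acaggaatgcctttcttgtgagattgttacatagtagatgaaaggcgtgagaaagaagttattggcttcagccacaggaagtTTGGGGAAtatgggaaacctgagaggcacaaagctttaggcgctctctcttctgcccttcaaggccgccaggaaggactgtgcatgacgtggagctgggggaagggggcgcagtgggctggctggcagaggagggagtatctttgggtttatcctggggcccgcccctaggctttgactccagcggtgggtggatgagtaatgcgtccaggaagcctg
Pi16 (chr17:29318632-29318931, plus strand): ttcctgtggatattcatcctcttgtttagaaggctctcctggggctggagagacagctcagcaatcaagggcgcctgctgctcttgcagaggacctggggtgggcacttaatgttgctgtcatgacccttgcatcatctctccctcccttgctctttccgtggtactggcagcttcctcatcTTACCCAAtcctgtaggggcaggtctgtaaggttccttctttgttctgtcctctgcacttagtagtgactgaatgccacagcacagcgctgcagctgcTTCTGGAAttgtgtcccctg

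The Saa3 window held 4 C/EBP-type matches. The Cxcl10 window held 1 AP-1 match, 2 C/EBP-type matches and 1 kB match, the Timp1 window 1 C/EBP-type match and the Pi16 window 2. Over 32851 mouse promoter windows of the same length, 7.81% held the AP-1 motif, 40.7% the C/EBP motif, 1.47% the kB motif and 13.6% TATAAA. A match says that these letters occur in the window.

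The lowest ratios over all members belonged to fibroblast genes: Aspa (-4.90), Ptgfr, a prostaglandin receptor (-4.88), Apod, an apolipoprotein (-4.64), Lsamp (-4.48), the transporters Abca8a (-4.35) and Abcc9 (-4.23), Scara5 (-4.15), Mamdc2 (-4.08) and Twist2, a transcription factor of connective tissue (-3.96). The remaining gene, Hmcn2, had 52 UMIs in low-burden and 0 in high-burden members, at least 3.95 lower on the log2 scale against a limit of 3 UMIs per library. Within Clec3b/Pi16-rich cells these genes had smaller differences. Abca8a was at 374 and 113 CPM (log2 ratio -1.72, -2.74 to -0.86), Apod at 215 and 62 CPM (-1.80, -3.26 to -0.65), and the interval of Twist2 (97 and 41 CPM, -1.23) reached from -3.14 to 0.18.

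Adventitial markers outside the rule showed the same contrast. Of 26 such genes past the filter in all members, 1 was past 2-fold higher (C3) and 18 past 2-fold lower, beside 8.81% and 12.5% of all genes. Their median log2 ratio was -1.95. In Clec3b/Pi16-rich cells 23 passed the filter, 1 was past 2-fold higher, 5 past 2-fold lower, and the median was -0.41, beside -0.11 over all genes there. The shares of all genes there were 3.77% higher and 14.3% lower. Without the deepest cell of each library, described below, none of the 23 was past 2-fold higher, 2 were past 2-fold lower and the median was -0.14, beside -0.10. All genes then had shares of 2.95% higher and 14.3% lower. The genes of the rule, given as a description, behaved alike: Pi16 differed by -3.84 and Lum by -2.70 over all members, and by -0.89 and 0.04 in Clec3b/Pi16-rich cells. C3, the central complement protein, was at 1143 CPM in low-burden and 2451 CPM in high-burden members, but at 830 and 691 CPM in Clec3b/Pi16-rich cells and at 3190 and 3351 CPM in Msln/Upk3b-positive cells. Its higher level over all members thus went with the larger share of Msln/Upk3b-positive cells, within which it differed little.

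A single cell weighed heavily among the 13 high-burden Clec3b/Pi16-rich cells. It held 25420 UMIs, 26.2% of the set, whereas the other 12 held 5173 to 7735. It had no Clec3b and no Pdgfra UMI, 3.15 UMIs per 10000 of Gsn where the other 12 had 44.0 to 543, and 112 of Timp1 where the others had 0 to 20.0. Its 13.4 UMIs per 10000 of Acta2, the smooth muscle actin of myofibroblasts, also exceeded the highest value of the other 12 (7.26). Ratios of Clec3b/Pi16-rich cells are therefore given without the deepest cell of each library, from 174 low-burden and 12 high-burden cells, unless stated. Then 78 of 2643 genes were past 2-fold higher (2.95%) and 379 past 2-fold lower (14.3%). The interval excluded equality for 62 (2.35%) and 108 (4.09%) of them.

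Several adventitial markers outside the rule stood at like levels in both libraries. Dpt stood at 1504 CPM in the low-burden and 1621 CPM in the high-burden cells (log2 ratio 0.11, -0.18 to 0.38), and Cd34, a surface sialomucin of these fibroblasts, at 774 and 727 CPM (-0.09, -0.53 to 0.32). Igfbp6, which binds insulin-like growth factor II, stood at 1964 and 2250 CPM (0.20, -0.05 to 0.43). Ccl11 was at 602 and 867 CPM (0.53, 0.12 to 0.91) and Ly6a at 1331 and 1971 CPM (0.57, 0.30 to 0.82). Ly6a also differed in lymphocytes, from 296 to 963 CPM. Fbln1 was lower, at 1923 and 1188 CPM (-0.69, -1.03 to -0.38), and so was Gsn, at 43406 and 27981 CPM (-0.63, -0.70 to -0.57).

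Metallothioneins, small proteins that bind zinc and copper, stood higher in the high-burden Clec3b/Pi16-rich cells. Mt2 was at 288 CPM in the low-burden and 1076 CPM in the high-burden library (log2 ratio 1.90, 1.51 to 2.27). Mt1 was at 831 and 2069 CPM (1.32, 1.05 to 1.57). In lymphocytes Mt2 stood at 41 and 11 CPM, lower in the high-burden library. Of the 36 immediate early and stress genes past the filter, 4 were past 2-fold higher and none past 2-fold lower, beside 2.95% and 14.3% over all genes. Their median was -0.11, beside -0.10 over all genes. Nfkbiz, a nuclear regulator of NF-kB targets, was at 66 and 238 CPM (1.85, 0.98 to 2.66), on 17 high-burden UMIs. The highest ratios of these cells were those of Wfdc17 (4.46), Spp1 (3.89), S100a9 (3.84), S100a8 (3.63) and Cd52 (2.64). Cd52 is a member of the immune marker list. The part of RNA from immune cells in these ratios, that of Nfkbiz included, was not tested.

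Timp1, an inhibitor of matrix metalloproteinases, had the highest ratio of the protease list. It was at 76 and 266 CPM (1.80, 0.98 to 2.56), on 19 high-burden UMIs. These were unevenly spread, with a median of 0.82 and a maximum of 20.0 UMIs per 10000 over the 12 cells. With the deepest cell included it was at 3135 CPM in the high-burden library (log2 ratio 5.36), and 94% of its UMIs were in that 1 cell. Its median over all 13 cells was 1.64 UMIs per 10000 against 0 over 175 low-burden cells, while the 15 high-burden Dcn-led cells had a median of 8.64 and the 10 low-burden ones 0. Of 20 protease and inhibitor genes, 3 were past 2-fold higher and 1, Adamts5, past 2-fold lower, beside 2.95% and 14.3% over all genes. Adamts5, a protease that cleaves aggrecan and versican, was at 237 and 112 CPM (-1.09, -2.32 to -0.08).

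**Figure D3:**
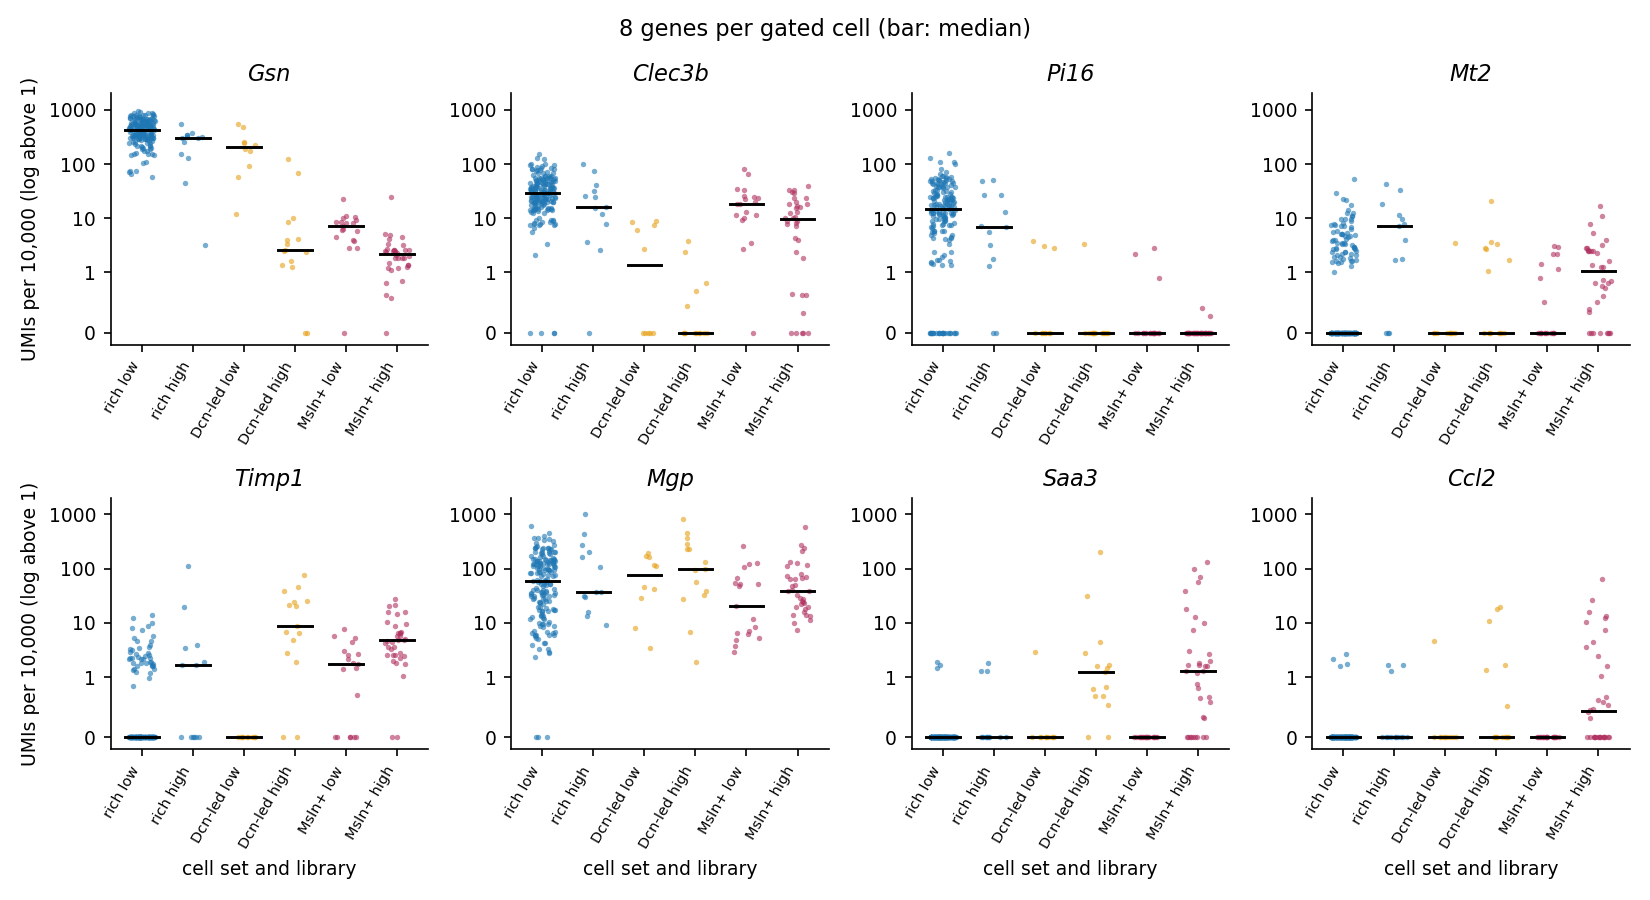
UMIs per 10000 (linear to 1, logarithmic above) of 8 genes in every selected cell, by set and library, with a bar at the median; rich stands for Clec3b/Pi16-rich and Msln+ for Msln/Upk3b-positive. Gsn has medians of 429 and 307 in Clec3b/Pi16-rich cells against 7.09 and 2.17 in Msln/Upk3b-positive cells, and the single Timp1 value of 112 in the high-burden Clec3b/Pi16-rich column is the deepest cell.

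Fbn1, which encodes fibrillin-1, was at 269 and 587 CPM (1.13, 0.62 to 1.61). Postn, a matricellular protein of healing tissue, was at 105 and 349 CPM (1.74, 1.04 to 2.39). Loxl2, a collagen cross-linking enzyme, was at 75 and 182 CPM (1.28, 0.29 to 2.15), and Cthrc1 at 58 and 154 CPM (1.42, 0.32 to 2.38). With the deepest cell Cthrc1 had 3.21, and 78% of its high-burden UMIs lay in that cell. Ltbp4, which holds latent TGF-beta in the matrix, was lower, at 1163 and 587 CPM (-0.99, -1.47 to -0.54), and Ctgf was at 661 and 349 CPM (-0.92, -1.56 to -0.34). Over the elastic fiber and microfibril list, 2 of 14 genes were past 2-fold higher and none past 2-fold lower, with a median of 0.04. Over the matricellular and injury list, 4 of 17 were past 2-fold higher, all with the interval clear of equality, and 2 past 2-fold lower, neither with it clear, beside 2.95% and 14.3% over all genes. The 4 higher genes included Spp1 and S100a4, from which no direction is read, as described below. The median of that list was 0.60, beside -0.10 over all genes. Over all members it was 0.33, and -0.22 after subtraction of free RNA.

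The highest of the matricellular list was Spp1, osteopontin, at 37 and 545 CPM (3.89, 3.17 to 4.61). In lymphocytes Spp1 differed as well, from 61 to 688 CPM. S100a4, often used as a fibroblast marker, was at 116 and 559 CPM (2.26, 1.70 to 2.81) in Clec3b/Pi16-rich cells and at 527 and 874 CPM in lymphocytes. Both genes were thus higher in lymphocytes than in these fibroblasts, in either library. Over all members, where they had 3.80 and 1.57, subtraction of free RNA turned Spp1 to -2.12 and S100a4 to -5.06. Counts that the subtraction left under 3 UMIs were set to 3, so that these values can be bounds and not ratios. No direction is read from either gene. S100a8 was at 168 and 2083 CPM, of which 87% of the high-burden UMIs lay in 1 cell when all 13 were counted.

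The major fibrillar collagens were somewhat lower, each by less than 2-fold. Over 15 collagen and processing genes 1, Loxl2, was past 2-fold higher and 1 past 2-fold lower, the latter with an interval that included equality. All genes had shares of 2.95% higher and 14.3% lower. The median of the list was -0.16, beside -0.10 over all genes. Col1a1 was at 1980 and 1188 CPM (-0.74, -1.07 to -0.42), Col1a2 at 3050 and 2292 CPM (-0.41, -0.65 to -0.18) and Col3a1 at 3886 and 3159 CPM (-0.30, -0.50 to -0.10). With the deepest cell, 62% of Col1a1 UMIs lay in it and the 3 ratios turned positive, to 0.24, 0.36 and 0.45. Acta2 likewise had 1.77 with that cell and -1.06 (-2.96 to 0.34) without it. Mgp, the matrix Gla protein that limits calcification, was at 8953 and 15248 CPM (0.77, 0.68 to 0.86), although its median over all cells was lower in the high-burden set, 37.2 against 59.1 UMIs per 10000, and 1 cell reached 1027.

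Receptors, growth factors and transcription factors of fibroblasts were more often lower than higher, as were all genes compared in these cells. Of 24 receptors 6 were past 2-fold lower and none past 2-fold higher, of 23 growth factor genes 7 and none, and of 25 transcription factors 7 and 1, beside 14.3% and 2.95% over all genes. The interval excluded equality for 4, 4 and 2 of the lower ones, beside 4.09% over all genes. The low-burden cells held 867458 UMIs in all and the high-burden cells 71548. Genes with few high-burden UMIs therefore passed the filter through the low-burden cells, and the counts of lower genes are no support for a difference. Pdgfra, the platelet-derived growth factor receptor that marks fibroblasts, was at 195 and 56 CPM (-1.80, -3.69 to -0.42), on 4 high-burden UMIs. At 2000 UMIs per cell it was found in 34.3% of 175 and 7.69% of 13 cells (0.195 to 36.0%), against 1.74% and 4.00% of lymphocytes, and without thinning in 62% and 23%. Scara5 was at 309 and 154 CPM (-1.01, -2.03 to -0.14), and Igfbp3 at 137 and 42 CPM (-1.71, -4.01 to -0.13). The 1 transcription factor past 2-fold higher was Creb5, at 146 and 335 CPM (1.20, 0.50 to 1.83).

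Cxcl12, the ligand of Cxcr4 that holds leukocytes and precursors in tissue, was at 505 and 238 CPM (-1.09, -1.88 to -0.39), while lymphocytes stood at 14 and 22 CPM. C1s1, a protease of the classical complement pathway, was at 309 and 140 CPM (-1.14, -2.22 to -0.24). Of 9 complement genes 2 were past 2-fold lower and none past 2-fold higher, and C3 was at 840 and 867 CPM (0.04, -0.35 to 0.42). F3, tissue factor, was at 355 and 56 CPM (-2.67, -4.55 to -1.30), a value that rests on 4 high-burden UMIs. Of 9 chemokines and cytokines 1, Mif, was past 2-fold higher and 1, Cxcl12, past 2-fold lower, with a median of -0.29. The complement and chemokine counts stand beside 2.95% of all genes past 2-fold higher and 14.3% past 2-fold lower.

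Interferon-induced and antigen-presenting genes were mostly higher over all members and mostly within 2-fold in the Clec3b/Pi16-rich cells. Over all members 24 of 32 such genes were past 2-fold higher and 1 lower, beside 8.81% and 12.5% of all genes, with a median of 1.65, or 1.14 with cells thinned to 3000 UMIs. In Clec3b/Pi16-rich cells 1 of 17 was past 2-fold higher and 1 lower, beside 2.95% and 14.3%, with a median of 0.04. H2-K1, a class I histocompatibility chain whose reads can be shared with its close relatives, was at 372 and 517 CPM there (0.47, -0.06 to 0.97), and its partner B2m at 1429 and 1356 CPM (-0.08, -0.39 to 0.22). Psmb8, a subunit of the immunoproteasome, was the 1 gene past 2-fold higher, at 75 and 238 CPM (1.66, 0.80 to 2.45), beside 472 and 766 CPM in lymphocytes. In Msln/Upk3b-positive cells, where 236 of 2272 genes were past 2-fold higher (10.4%, or 8.85% with the interval clear of equality) and 160 past 2-fold lower (7.04%), 15 of 29 genes of this list were past 2-fold higher and none lower. There H2-K1 was at 811 and 2773 CPM and B2m at 2107 and 5026 CPM. Some genes of this list passed the filter only through the high-burden cells, which fixed their direction. Examples are Cxcl10 over all members (2 and 189 UMIs) and H2-Q7 in Msln/Upk3b-positive cells (1 and 108 UMIs). The counts over all members and in Msln/Upk3b-positive cells are therefore no support for a difference. They also cover more genes than the 17 compared in Clec3b/Pi16-rich cells.

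Cell division genes were seen mainly outside the Clec3b/Pi16-rich cells. Over all members 12 of 15 were past 2-fold higher with a median of 2.95, beside 8.81% of all genes, and in Msln/Upk3b-positive cells 12 of 13 with a median of 2.16, 11 of them with the interval clear of equality, beside 10.4%. Several of these genes passed the filter only through the high-burden cells, which fixed their direction, so that these counts are no support for a difference. With cells thinned to 3000 UMIs the median over all members was 1.13. In Clec3b/Pi16-rich cells 3 genes passed the filter and none was past 2-fold. Ube2c, which targets cyclins for degradation, had 1 UMI in all low-burden members and 90 UMIs in high-burden Msln/Upk3b-positive cells, and 1 and 3 UMIs in Clec3b/Pi16-rich cells. Lymphocytes held 88 and 223 CPM of it. Of the carcinoma markers, a list that includes Birc5 and Lcn2, 5 of 6 were past 2-fold higher over all members. In Msln/Upk3b-positive cells 4 of 4 were. The shares of all genes are those given above, and Birc5 passed the filter only through the high-burden cells. The part of RNA from carcinoma cells in these values was not tested. Aldehyde dehydrogenase Aldh1a2, which makes retinoic acid, was the highest of the lipid and retinoid list over all members (2.46), and 0.53 within Msln/Upk3b-positive cells.

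**Figure D4:**
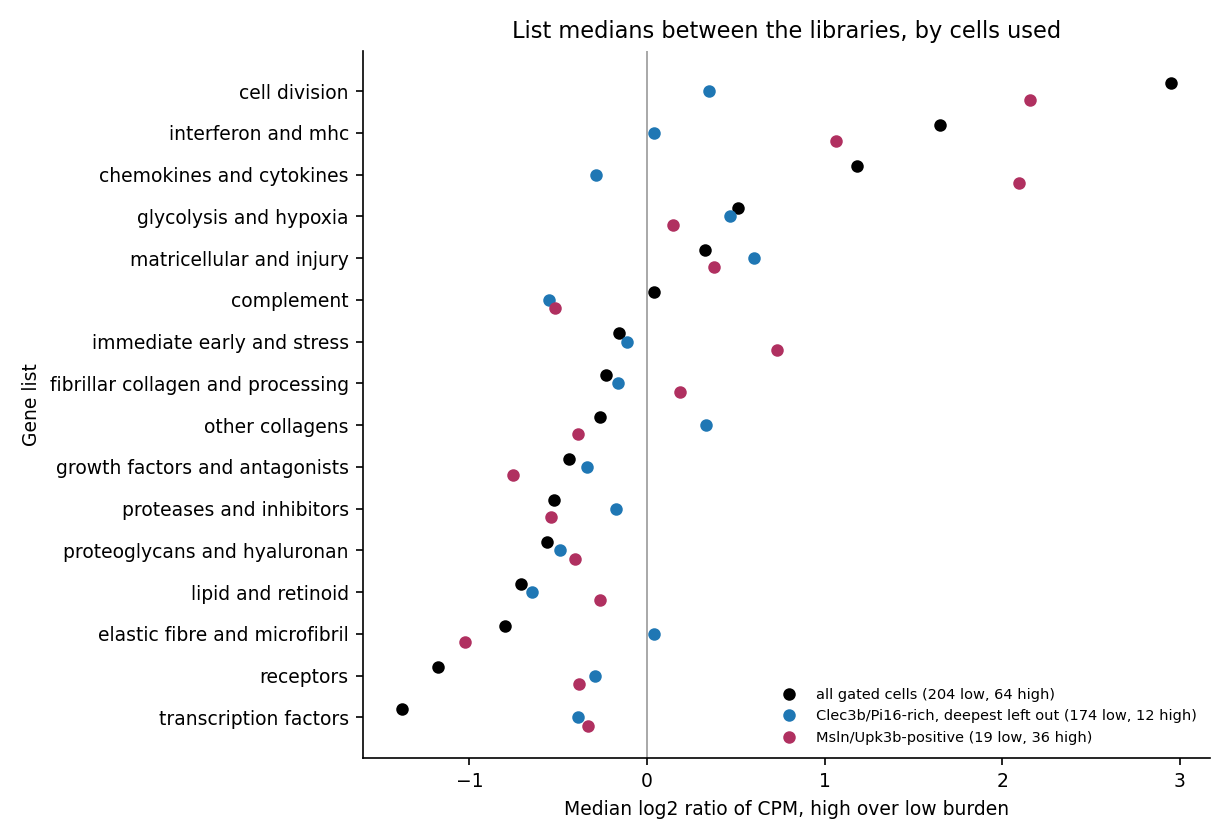
Median log2 ratio of CPM, high over low burden, of the genes past the filter in each of 16 lists, for all selected cells (black), Clec3b/Pi16-rich cells without the deepest of each library (blue) and Msln/Upk3b-positive cells (red). Cell division (2.95), interferon (1.65) and chemokine (1.18) lists lie far right for all selected cells and between -0.29 and 0.35 for Clec3b/Pi16-rich cells. Some genes of each of these lists passed the filter only through the high-burden cells, which fixed their direction. The genes compared also differ, with 15, 32 and 18 in all selected cells and 3, 17 and 9 in Clec3b/Pi16-rich cells.

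Other lists gave smaller medians over all members, to be read beside 8.81% of all genes past 2-fold higher and 12.5% past 2-fold lower. These were 0.51 for glycolysis and hypoxia genes (6 of 15 past 2-fold higher, 1 lower), 0.33 for matricellular genes (5 of 19, and 4 lower), 0.04 for complement (3 of 11, and 1 lower), -0.16 for immediate early genes (4 of 37, and 4 lower) and -0.23 for fibrillar collagens (1 of 21, and 3 lower). Further down were -0.26 for other collagens (none of 10, and 3 lower), -0.44 for growth factors (4 of 35, and 9 lower), -0.52 for proteases (4 of 24, and 9 lower), -0.56 for proteoglycans (2 of 14, and 6 lower) and -0.71 for lipid and retinoid genes (2 of 22, and 10 lower). The elastic fiber list had -0.80 (none of 14, and 4 lower), receptors -1.18 (3 of 30, and 17 lower) and transcription factors -1.38 (1 of 27, and 17 lower). In Clec3b/Pi16-rich cells the proteoglycan list had -0.49, lipid and retinoid genes -0.65, other collagens 0.33 and glycolysis genes 0.46, the last led by Tpi1 at 100 and 307 CPM (1.62, 0.87 to 2.30).

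The nearest class of cells is the fibroblast on the other side of the rule, with at least 20 UMIs per 10000 of Inmt, Tcf21, Mfap4 and Hsd11b1 together and no less of them than of the adventitial sum. These Tcf21-side cells numbered 224 (low burden) and 56 (high burden), 9.06% and 1.85% of kept cells, so that their share too was lower in the high-burden library. They are compared here after cells rich in epithelial or immune genes or poor in fibroblast genes had been left out, which left 188 and 36. In the low-burden library, 307 of 4978 genes were past 2-fold higher in Clec3b/Pi16-rich than in all Tcf21-side cells (6.17%) and 392 past 2-fold lower (7.87%). Outside the rule's genes the highest were Sfrp4 (7.18), Cadm3 (6.12), Scara5 (6.08), Angptl1 (5.94), Penk (5.79) and Cthrc1 (5.63), in log2 ratios to the purer 188 cells. The lowest were Scn3a, a sodium channel subunit (-6.40), Cxcl14, a chemokine (-6.02), and Npnt, nephronectin of the alveolar basement membrane (-5.19). Scara5, for example, stood at 309 CPM in Clec3b/Pi16-rich cells and at 5 CPM, 4 UMIs, in the purer Tcf21-side cells.

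The Tcf21-side cells come from the same 2 libraries and so share their depth and free RNA. Over all 224 and 56 of them, 4.99% of 4266 genes were past 2-fold higher and 9.28% past 2-fold lower in the high-burden library, and 4.99% and 9.1% with the interval clear of equality. In the purer cells several genes lay on the same side as in Clec3b/Pi16-rich cells. Mt2 was at 55 CPM in low-burden and 254 CPM in high-burden Tcf21-side cells, Gsn at 22164 and 12392 CPM and Pdgfra at 386 and 217 CPM. Cxcl12, at 99 and 129 CPM, and Fbn1, at 94 and 107 CPM, differed little there. Whether the 2 classes differ in these ratios was not tested.

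Clec3b/Pi16-rich cells also varied among themselves within the low-burden library. At 2000 UMIs, 137 had a UMI of Pi16 and 38 had none, with medians of 4932 and 4388 UMIs before thinning. Sfrp4 was 3.77 higher on the log2 scale in the cells with Pi16 (2.53 to 5.41), Wisp2, a secreted CCN protein, 2.72 (1.46 to 4.36) and Ly6a 1.01 (0.75 to 1.29). Cells without detected Pi16 held more of C4b, a complement protein (-2.38, -2.89 to -1.88), Igfbp3 (-2.09, -2.64 to -1.55) and Cxcl12 (-1.26, -1.54 to -0.97). Sfrp4 was found in 27.7% of cells with and 2.63% of cells without Pi16 at that depth, and C4b in 14.6% and 28.9%. Igfbp5 (1.62) and Apoe (-1.50) differed in summed level but were found in like shares, 21.9% and 21.1% for Igfbp5 and 74.5% and 78.9% for Apoe. Because Pi16 belongs to the rule, this split is a description. Of the 13 high-burden cells 10 had Pi16 at that depth, too few on either side for a like comparison.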

How the data were processed

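Whole lungs of 2 mice were perfused and dissociated with collagenase and a tissue enzyme mix, and red cells and debris were removed. The authors processed the reads with Cell Ranger 2.0.2 on mm10 with the PYMT sequence appended, and deposited counts of UMIs per gene and cell, whole numbers with no normalization. Groups were taken from the sample titles. Of the 27999 genes listed per library, 27645 have their identifier in GENCODE M21 (GRCm38). No deposited cell annotation was used, and some named genes are not reported here.

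Cells were selected by the rule given above, and the members and gene lists were chosen with earlier results of these data known. For each set the counts of its cells were added and scaled to a total of 1000000. A gene was compared with at least 50 UMIs over both libraries and a UMI in 10% of the cells of either. Past 2-fold means an absolute log2 ratio of at least 1. Shares carry Clopper-Pearson, counts Poisson and ratios exact conditional binomial 95% intervals. These treat UMIs as independent and cover neither variation between cells nor between mice. Where a summed count was 0, 3 UMIs per library gave a bound. Named genes were those of the rule and markers, the 10 highest and 10 lowest ratios, the most enriched genes, and members of the 16 function lists at either end or with most UMIs. The comparison functions were tested on simulated counts. Lists of 563 genes were used, of which 562 are in the files. Doublets were kept. Scrublet marked 9 low-burden (0.364%) and 7 high-burden cells (0.231%), too low a yield to have worked, and 2 of them were members. Python 3.11.15, numpy 2.4.6, scipy 1.17.1 and scanpy 1.11.5 were used, and promoter sequences came from RefSeq (GRCm38.p6).

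The level of the immune and epithelial marker lists in a set, as a percent of their level in the whole library, served as an upper limit of free RNA. It was 11.2% in low-burden and 19.7% in high-burden Clec3b/Pi16-rich cells. Alternatives changed the rule's limits, the cells, the scaling, the depth and the gene filter.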

Additional observations from a re-analysis of the deposited data

Results flagged for a closer look

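In 4 genes of the matrix and contractile lists, Clec3b/Pi16-rich cells and Tcf21-side fibroblasts lay on opposite sides between the libraries. The difference between the classes was not tested, since each has 1 library per group. Postn had a log2 ratio of high over low burden of 1.84 in Clec3b/Pi16-rich cells and -3.86 in Tcf21-side fibroblasts. Without the deepest cell of each library it had 1.74, and in the purer Tcf21-side cells, where it had 31 and 1 UMIs, -3.27. Col15a1, a basement membrane collagen, had 1.07 and -2.90, and 0.18 without the deepest cell. Acta2 had 1.77 and -1.56, but -1.06 without the deepest cell, so that both classes then lay on the same side. Tagln, a smooth muscle actin-binding protein, had 2.49 and -1.38, and 0.82 (-0.46 to 1.90) without the deepest cell. The opposite sides thus rested on 1 cell for Acta2, and for Col15a1 and Tagln the interval without that cell included equality. Postn was found in only 5 of the 13 high-burden Clec3b/Pi16-rich cells, with a median of 0.

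Outside the limits on detected genes and mitochondrial UMIs, 2 low-burden cells and no high-burden cell met the rest of the rule. They took no part in any comparison.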

How the results depend on the processing

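No paired analysis was possible because each group has 1 library, and for the same reason no replicate could be left out. Limits are the 13 high-burden Clec3b/Pi16-rich cells, the unequal depth and free RNA. Cells without mesothelial transcripts, Clec3b/Pi16-rich cells and the latter without the deepest cell of each library were alternatives chosen after seeing the data. Values over all members follow, and the cause of each move was not tested.

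Member numbers of 204 and 64 became 11 and 20 (0.445% and 0.659% of kept cells) without cells rich in immune or epithelial genes, which turned the direction of the share. High-burden members became 47 (1.55%) at a limit of 40 per 10000, 28 (0.923%) without mesothelial transcripts, 13 (0.429%) when Clec3b/Pi16-rich and 12 (0.396%) without the deepest, against 175 (7.08%) and 174 (7.04%) low-burden cells in the last pair. Genes past 2-fold higher numbered 271, 200, 103 and 78 under the immune or epithelial limit, without mesothelial transcripts, in Clec3b/Pi16-rich cells and without the deepest. They numbered 152 with cells thinned to 3000 UMIs, 1187 with a filter of 10 UMIs and 137 with one of 200, beside 436. Genes past 2-fold lower numbered 94 under the immune or epithelial limit, 390 and 379 in Clec3b/Pi16-rich cells with and without the deepest, 327 thinned, 1706 at 10 UMIs and 200 at 200 UMIs, beside 621. The number of genes compared moved with these settings, from 1039 to 10381.

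Without cells rich in immune or epithelial genes, list medians were 0.041 for elastic fibers, 0.044 for proteases and 0.21 for lipid and retinoid genes, 0.61 for growth factors and 0.12 for immediate early genes, which all changed sign, and -1.12 for proteoglycans, 2.11 for chemokines, 2.24 for complement, 1.90 for cell division and -0.65 for transcription factors. Without mesothelial transcripts they were 0.090 for fibrillar collagens and -0.71 for complement, which changed sign, 0.78 for matricellular genes, -0.87 for proteases, 0.85 for interferon genes and 0.93 for cell division.

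In Clec3b/Pi16-rich cells they were 0.24 for fibrillar collagens, 0.70 for other collagens, -0.022 for chemokines and -0.71 for complement, which changed sign, -0.00422 for elastic fibers, 0.88 for matricellular genes, 0.090 for interferon genes, -0.39 for receptors, 0.29 for cell division and -0.48 for transcription factors. Without the deepest cells they were 0.33 for other collagens, 0.038 for elastic fibers, -0.29 for chemokines and -0.55 for complement, which changed sign, -0.18 for proteases, 0.039 for interferon genes, -0.29 for receptors, 0.35 for cell division and -0.39 for transcription factors.

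With cells thinned to 3000 UMIs chemokines had 0.35, interferon genes 1.14 and cell division 1.13. A filter of 200 UMIs gave -0.68 for fibrillar collagens, -1.25 for proteoglycans, 1.31 for cell division and 1.14 for glycolysis. Subtraction of free RNA, after which counts under 3 UMIs were set to 3, gave -0.22 for matricellular genes, which changed sign. It gave 0.47 for chemokines, 0.35 for complement and 0.064 for glycolysis. The other settings moved no list median by more than the counting error. Median-of-ratios scaling shifted every ratio by -0.00087.

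Of 1257 alternative ratios of 99 named genes, 772 stayed within the counting interval, 459 moved outside it without a called change of sign and 26 changed sign. In Clec3b/Pi16-rich cells Lum had 0.043, Ccl11 0.090, Ly6a 0.25 and Col15a1 1.07, and C3 had -0.27, Cxcl1 -0.13, Bst2 -1.25, Cfb -0.97 and Sdc4 -0.31. Without the deepest cells Lum had 0.35, Ccl11 0.53, Ly6a 0.57, Dpt 0.11, Tnxb 0.011 and Col15a1 0.18, and B2m had -0.076, Bst2 -1.21, Cfb -0.55, Hspb1 -0.72 and Sdc4 -0.31. C3 had -0.71 without mesothelial transcripts. Without cells rich in immune or epithelial genes Fn1 had -0.077, Col15a1 0.17 and Wfdc17 -0.23. Subtraction of free RNA turned S100a4 to -5.06 and Spp1 to -2.12, values that can be set by the limit of 3 UMIs.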

Other observations

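The 15 high-burden Dcn-led cells stood apart from the 10 low-burden ones in more than gelsolin. Their matrix Gla protein had a median of 97.7 UMIs per 10000 against 77.8. Their general fibroblast markers, a list that includes Gsn, summed to 13214 CPM against 34582 CPM. Of the 44474 UMIs of the low-burden Dcn-led cells 995 were Gsn, so that this contrast is not separate from gelsolin. Penk was at 278 CPM against 67 CPM, Sparc, a collagen-binding protein of bone and wound matrix, at 7848 CPM against 2541 CPM, and Fn1, fibronectin, at 1712 CPM against 540 CPM. Apod, at 5 CPM against 135 CPM, and Scara5, at 5 CPM against 135 CPM, lay on the other side. The immune markers summed to 6273 CPM in the low-burden and 1727 CPM in the high-burden cells. The smooth muscle and pericyte markers summed to 3665 CPM and 800 CPM, with 1 low-burden cell at 237 UMIs per 10000. These are values of 10 and 15 cells, and the part of such cells in the contrast was not tested.

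Some secreted proteins of the Msln/Upk3b-positive members also differed between the libraries. Slpi, an inhibitor of leukocyte elastase, was at 2041 CPM in the low-burden and 4161 CPM in the high-burden cells, and Igfbp6 at 10734 and 3165 CPM. Cxcl13, the B cell chemokine, was at 758 CPM, 114 UMIs, in 19 low-burden cells and at 11 CPM, 7 UMIs, in 36 high-burden cells.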
